A study of Mus musculus with 18 samples.

Results

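Zeb1 and Zeb2 encode a pair of related zinc-finger transcription factors, and their messenger RNA was followed across sorted bone marrow cells in which Zeb2 was targeted for deletion. The members were the probe sets annotated to the single symbol Zeb1 or Zeb2, and there were 2 of them among 30177 on the array, probe set 10453678 for Zeb1 and probe set 10482448 for Zeb2. Both were read on all 18 arrays, 9 of monocytes with high surface Ly-6C and 9 of neutrophils, sorted from C57BL/6 bone marrow. All mice carried floxed Zeb2 alleles (Zeb2 fl/fl), and the mice labelled Zeb2-deficient carried Mx1-Cre in addition, a recombinase under an interferon-inducible promoter that is active in many cell types. Poly(I:C), a synthetic RNA duplex that triggers an interferon response, was given as 2 injections of 150 µg within 48 h, and cells were taken after 3 weeks. Each cell type had 4 arrays of poly(I:C)-treated Zeb2 fl/fl controls, 4 arrays of poly(I:C)-treated mice labelled Zeb2-deficient, called labelled-deficient here and CKO in the plots, and 1 array of an untreated Zeb2 fl/fl control. Controls had no Cre, so loss of Zeb2 and presence of Cre cannot be told apart. Nothing in the labels ties the arrays of a group to separate animals, so the p-values measure the spread among these arrays, which may be technical, and their number limits the precision.

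ZEB proteins bind E-box sequences through a zinc-finger cluster at each end of the protein and recruit co-repressors to the genes there, among them genes of epithelial junctions. Members of the miR-200 family of microRNAs act on Zeb1 and Zeb2 messenger RNA, and ZEB proteins repress the miR-200 genes, which makes a double-negative loop. ZEB2 also binds Smad proteins of the TGF-beta and BMP pathways, and in blood cells it takes part in the maturation of monocytes, dendritic cells and NK cells.

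The E-box form examined here was CACCTG, which reads CAGGTG on the opposite strand. It was found in 20.2% of 32851 RefSeq windows of 300 bases around gene starts (GRCm38.p6, either strand), and in at least 1 window of 22.6% of 27025 genes. There were 5 epithelial genes called higher in labelled-deficient monocytes, described further on. Cldn1, Dsp, Krt18 and Marveld2 had promoter entries, Cd24a had none, and 3 of the 4 held the motif. Of the 10 epithelial genes with entries that were tested and not called, 8 held it, and so did 5 of 5 that were not tested. The 3 matches are shown as 30 bases each, 5′ to 3′ on the strand of the gene, with the motif in capitals. They come from chr13:38151285-38151314 on the plus strand for Dsp, chr15:102027990-102028019 on the plus strand for Krt18 and chr13:100616911-100616940 on the minus strand for Marveld2.
Dsp: gaagaagccgacCAGGTGtggcctgggcgc
Krt18: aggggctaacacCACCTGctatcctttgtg
Marveld2: ccggcggccgcgCAGGTGagtggggccgcg

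The 250 bases before the most upstream RefSeq start of Zeb2 (chr2:45117443-45117692, minus strand, GRCm38.p6) are shown because Zeb2 and its antisense neighbour Zeb2os gave genotype differences of the same sign in each cell type, none past the test. The shorter ZEB core CACCT is in capitals. It occurred in 3 of the 4 RefSeq windows of Zeb2 and in 51.9% of all windows, while CACCTG occurred in none of the 4. A match is a description of the letters and not evidence of binding.
Zeb2: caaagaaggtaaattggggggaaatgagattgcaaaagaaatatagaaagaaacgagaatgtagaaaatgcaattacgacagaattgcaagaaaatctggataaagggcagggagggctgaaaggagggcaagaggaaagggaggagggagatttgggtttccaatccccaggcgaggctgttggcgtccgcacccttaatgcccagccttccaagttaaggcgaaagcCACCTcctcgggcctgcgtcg

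The mature miR-200 family members are shown with the seed, bases 2 to 8, in capitals, since the seed sets which messages a microRNA can pair with. They fall into 2 seed groups, with 3 members sharing AAUACUG and 2 sharing AACACUG. The array does not separate mature microRNAs from their precursors, and values for the genes are given with the other antagonists of Zeb further on.
mmu-miR-200b-3p: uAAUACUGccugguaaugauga
mmu-miR-200c-3p: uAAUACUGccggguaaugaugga
mmu-miR-429-3p: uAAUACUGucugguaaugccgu
mmu-miR-200a-3p: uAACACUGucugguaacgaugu
mmu-miR-141-3p: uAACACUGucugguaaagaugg

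All values are log2 intensities from RMA, a summary over the probes of a probe set, and a difference of 1 on this scale is a doubling. Levels of different probe sets are not comparable, so Zeb1 is never ranked against Zeb2. Differences were tested with limma over 13387 genes, and a gene was called at a Benjamini-Hochberg adjusted p under 0.05. The arrays were divided into sets by their place in the record. Set A had 10 arrays, controls 1 to 3 (3 being untreated) and labelled-deficient 1 and 2 of each cell type, and set B had 8, controls 4 and 5 and labelled-deficient 3 and 4. The labels do not say what the sets are. Array medians ran from 4.81 to 4.92. A probe set on the 40th percentile of an array read 4.28 to 4.37 in poly(I:C)-treated monocytes and 4.40 to 4.50 in poly(I:C)-treated neutrophils, and both Zeb1 and Zeb2 exceeded it on all 18 arrays.

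The sorted populations were checked against marker lists, using the mean log2 value of each list. All 6 measured monocyte markers, among them Ccr2 and Csf1r, exceeded the 40th percentile on every poly(I:C)-treated monocyte array. Their mean was 10.80 to 11.01 in control monocytes, 9.60 to 10.81 in labelled-deficient monocytes and 4.55 to 4.92 in poly(I:C)-treated neutrophils. The 8 neutrophil markers, among them Ly6g and Cxcr2, averaged 11.7 to 11.8 in poly(I:C)-treated neutrophils and 5.59 to 7.18 in control monocytes. In labelled-deficient monocytes they stood at 9.14 to 10.2, and all 8 rose (median 3.22). Markers of granulocyte and monocyte progenitors, among them Kit and Mpo, averaged 5.85 to 7.53 in control and 7.56 to 9.47 in labelled-deficient monocytes, and all 7 tested members rose (median 2.64). The T and NK cell list read 3.60 to 3.83 in poly(I:C)-treated monocytes, with 4 of its 6 measured markers, in each group, at or under the 40th percentile on every array. In a bulk sample, fewer cells of a type and less RNA per cell cannot be told apart.

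Zeb2 was high in control monocytes and lower in control neutrophils, and Zeb1 showed the opposite order. For Zeb2 the control monocytes read 10.08, 9.88, 9.88 and 9.86, and the control neutrophils 7.19, 6.86, 7.54 and 7.40. The arrays of the cell types lay well apart, as did those of 56.2% of genes, which did not overlap. The difference of 2.68 ± 0.24 (SE, n = 4 and 4) was 6.40-fold (limma adjusted p = 2.15e-08).

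For Zeb1 the control monocytes read 5.20, 4.91, 5.28 and 4.74, and the control neutrophils 7.30, 7.20, 7.53 and 7.22. Every neutrophil array was above every monocyte array. The difference of -2.28 ± 0.18 (SE, n = 4 and 4) was 4.85-fold in favour of neutrophils (limma adjusted p = 5.26e-09). The monocyte level lay close to the array medians of 4.81 to 4.92, so the size of this fold rests on a low signal. Calls in this comparison were common, at 58.6% of genes tested, so these are calls among many. Untreated controls followed the same order, with Zeb2 at 9.75 in monocytes and 6.66 in neutrophils, and Zeb1 at 5.06 and 7.28.

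**Figure D1:**
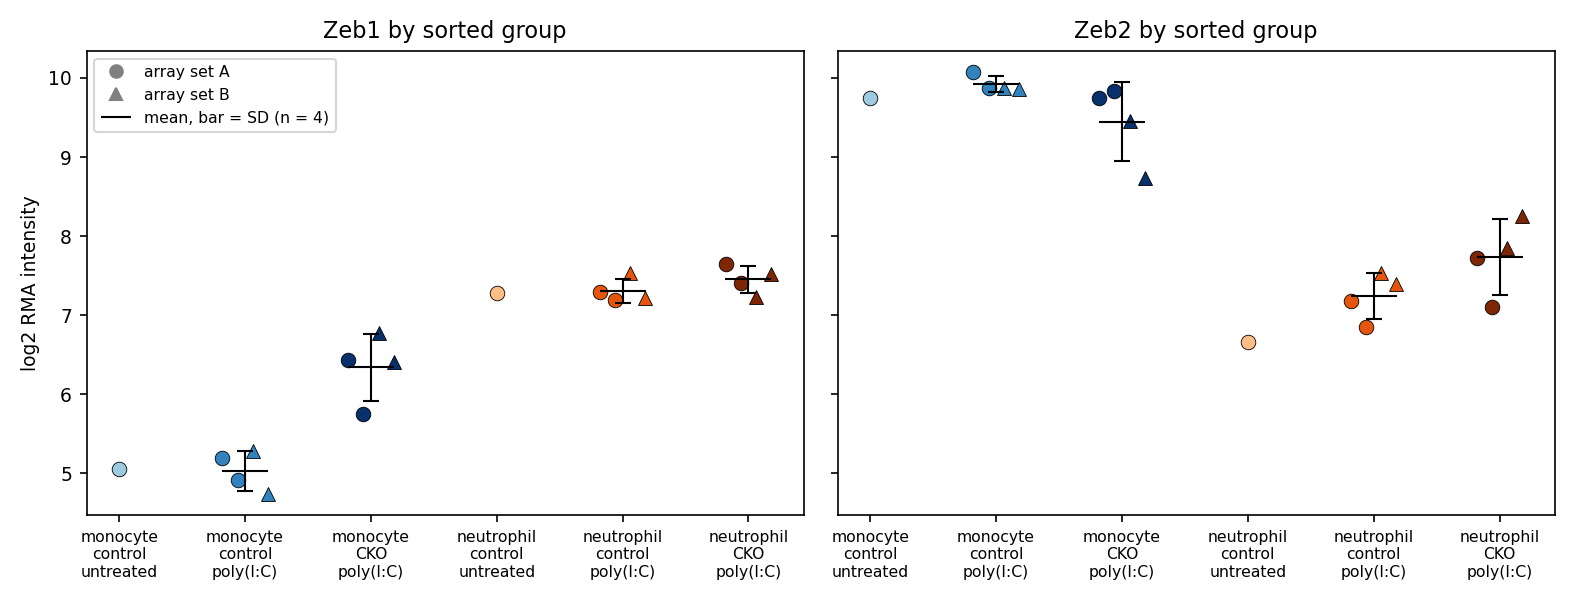
Zeb1 (left) and Zeb2 (right) on each of the 18 arrays, as log2 RMA intensity, by sorted group; circles are array set A, triangles array set B, and black lines and bars give the mean and SD of groups of 4. Zeb1 in labelled-deficient monocytes (5.76 to 6.77) lies between control monocytes and neutrophils, while the Zeb2 groups differ by -0.48 in monocytes and 0.49 in neutrophils, neither past the test; heights are not comparable between the panels.

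In labelled-deficient monocytes Zeb1, the gene that was not targeted, rose. The 4 labelled-deficient arrays read 6.43, 5.76, 6.77 and 6.41, a mean of 6.34 ± 0.42 (SD, n = 4) against 5.03 ± 0.25 (SD, n = 4) in poly(I:C) controls. All 4 exceeded every control, and the array at 5.76 was the nearest to them. The rise was 1.31 ± 0.18 (SE), or 2.48-fold, with a limma adjusted p of 1.33e-04, the 91st smallest p-value of the 13387 genes. Control values, 4.74 to 5.28, lay close to the array medians of 4.81 to 4.92, so the fold rests on a low baseline. In this comparison 7.54% of genes were called, 5.11% higher and 2.44% lower. An exact permutation test over the 8 arrays gave a two-sided p of 0.0286, the smallest that its 70 splits allow. The rise was 1.04 within array set A and 1.58 within set B, and stayed between 1.17 and 1.51 when single arrays were left out.

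Zeb2 itself, the gene targeted in these mice, did not pass the test in monocytes. Labelled-deficient arrays read 9.75, 9.84, 9.46 and 8.74, with a mean of 9.45 ± 0.50 (SD, n = 4), and the controls averaged 9.92 ± 0.10 (SD, n = 4). The groups did not overlap, but the highest labelled-deficient array, 9.84, lay just under the lowest poly(I:C) control, 9.86, and the untreated control, 9.75, fell inside the labelled-deficient range. The difference was -0.48 ± 0.24 (SE), a 1.39-fold lower signal, with a limma adjusted p of 0.272. Groups failed to overlap for 10% of genes here. The exact permutation p over the arrays was 0.0286, again the smallest possible.

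The array labelled-deficient 4, at 8.74, stood lowest, and without it the Zeb2 difference was -0.24. It was -0.18 within array set A and -0.77 within set B, where it passed (limma adjusted p = 0.0350). The Zeb2 probe set summarises probes along the transcript, and which exon is removed is not given in the sources used here. A transcript that lacks the deleted part can still give signal, so the level is no check of the deletion.

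In neutrophils neither gene was called. Labelled-deficient arrays read 7.65, 7.41, 7.23 and 7.52 for Zeb1, with a mean of 7.45 ± 0.17 (SD, n = 4) against 7.31 ± 0.15 (SD, n = 4) in controls. The groups overlapped throughout, and the difference was 0.14 ± 0.18 (SE, limma adjusted p = 0.999). Only 0.12% of genes were called in this comparison.

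For Zeb2 the labelled-deficient neutrophils read 7.72, 7.10, 7.85 and 8.25, a mean of 7.73 ± 0.48 (SD, n = 4) against 7.24 ± 0.30 (SD, n = 4) in controls. Arrays 1, 3 and 4 exceeded the highest control, and array 2 fell among the controls. The difference of 0.49 ± 0.24 (SE) was towards more Zeb2 in the arrays labelled deficient, against the label, and did not pass (limma adjusted p = 0.972; exact permutation p = 0.143, two-sided). Group names are therefore those of the labels throughout, with no claim about the remaining Zeb2.

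The response of Zeb1 differed between the cell types, by 1.17 ± 0.25 (SE, limma adjusted p = 0.0152), in a test of the difference that called 2.68% of genes. It stayed past the threshold with each array left out in turn. Within array set A it was 0.76 and did not pass (adjusted p = 0.544), and within set B it was 1.58 (adjusted p = 0.0112). For Zeb2 the difference between the cell types was -0.97 ± 0.33 (SE, limma adjusted p = 0.160), with lower values in monocytes and higher values in neutrophils. It was -0.57 within set A and -1.36 within set B, where it passed (adjusted p = 0.0226).

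Between labelled-deficient cells the order of the cell types was that of the controls. Zeb1 was lower in monocytes, by -1.11 ± 0.18 (SE, 2.16-fold, limma adjusted p = 4.13e-05), and Zeb2 was higher, by 1.71 ± 0.24 (SE, 3.28-fold, limma adjusted p = 6.88e-06), in a comparison that called 62.1% of genes. Neither gene's arrays overlapped here, nor did those of 50.7% of genes. From low to high, Zeb1 ran from control monocytes through labelled-deficient monocytes and control neutrophils to labelled-deficient neutrophils. Only the pair of neutrophil groups overlapped. For Zeb2 the order was control neutrophils, labelled-deficient neutrophils, labelled-deficient monocytes and control monocytes, again with overlap between the neutrophil groups alone. The step from labelled-deficient to control cells across cell types was not tested.

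The balance of the 2 genes was read as Zeb1 minus Zeb2 within an array, a quantity free of array-wide scale whose level has no meaning but whose change does. In control monocytes it was -4.88, -4.96, -4.60 and -5.12, and in labelled-deficient monocytes -3.32, -4.08, -2.68 and -2.32. All 4 labelled-deficient arrays were higher, with arrays 3 and 4, of set B, the highest. The change was 1.79 (exact permutation p = 0.0286, two-sided, n = 4 and 4). Each gene alone had already separated these groups, in opposite directions. This p, the smallest possible, was therefore fixed by those results and adds nothing to them. In neutrophils it was -0.35 (exact permutation p = 0.257, two-sided), with means of 0.067 ± 0.22 (SD, n = 4) in controls and -0.28 ± 0.49 (SD, n = 4) in labelled-deficient arrays.

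**Figure D2:**
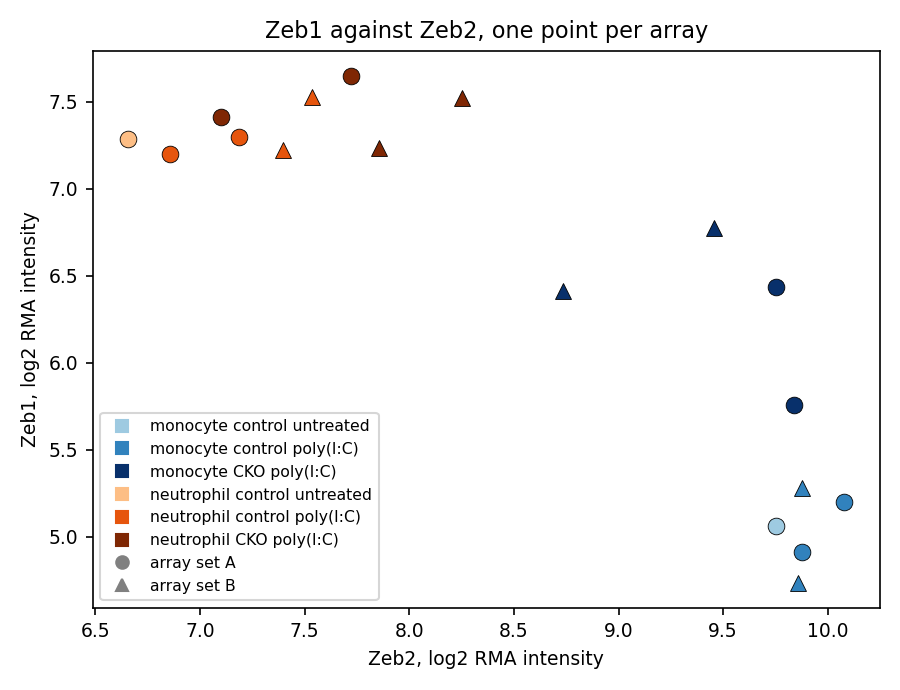
Zeb1 (vertical axis) against Zeb2 (horizontal axis), both log2 RMA intensity, with 1 point per array; colours give the group and shapes the array set. Monocyte arrays sit at the right and neutrophil arrays at the upper left, and the 4 labelled-deficient monocyte arrays lie above the control monocytes, 2 of them, both of set B, also further left at 9.46 and 8.74.

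Markers of other cells, like Zeb1, were higher in the labelled-deficient monocyte sort, while within the groups the orders differed. Over labelled-deficient arrays 1 to 4 the neutrophil markers averaged 10.2, 9.14, 10.1 and 9.96, and the progenitor markers 8.81, 7.56, 9.19 and 9.47. Array 2, with the least of both, also had the least Zeb1, at 5.76. Array 3 had the most Zeb1, 6.77, with the most of neither. Control arrays 4 and 5 had neutrophil means of 7.18 and 6.61, against 5.61 and 5.59 on controls 1 and 2. Zeb1 on controls 4 and 5 was 5.28 and 4.74, against 5.20 and 4.91 on controls 1 and 2. Labelled-deficient array 4, with the most progenitor signal, had the lowest mean of monocyte markers, 9.60, and the lowest Zeb2. Monocyte markers averaged 10.26, 10.81 and 10.03 on the other three, and all 6 differences were below 0 (median -0.78), of which 2 passed as a fall. With the array set as a block, alone or within cell type, and within set B, 6 of 6 fell, against 0 within set A and 1 with quantile normalization. Of all 13387 genes tested, 596, 733, 714, 23 and 329 were called lower under these settings, in that order. Zeb1 was high in control neutrophils themselves, as given above, and its level in sorted progenitors was not measured here. The part of these marker signals in the Zeb1 and Zeb2 differences was not tested.

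**Figure D3:**
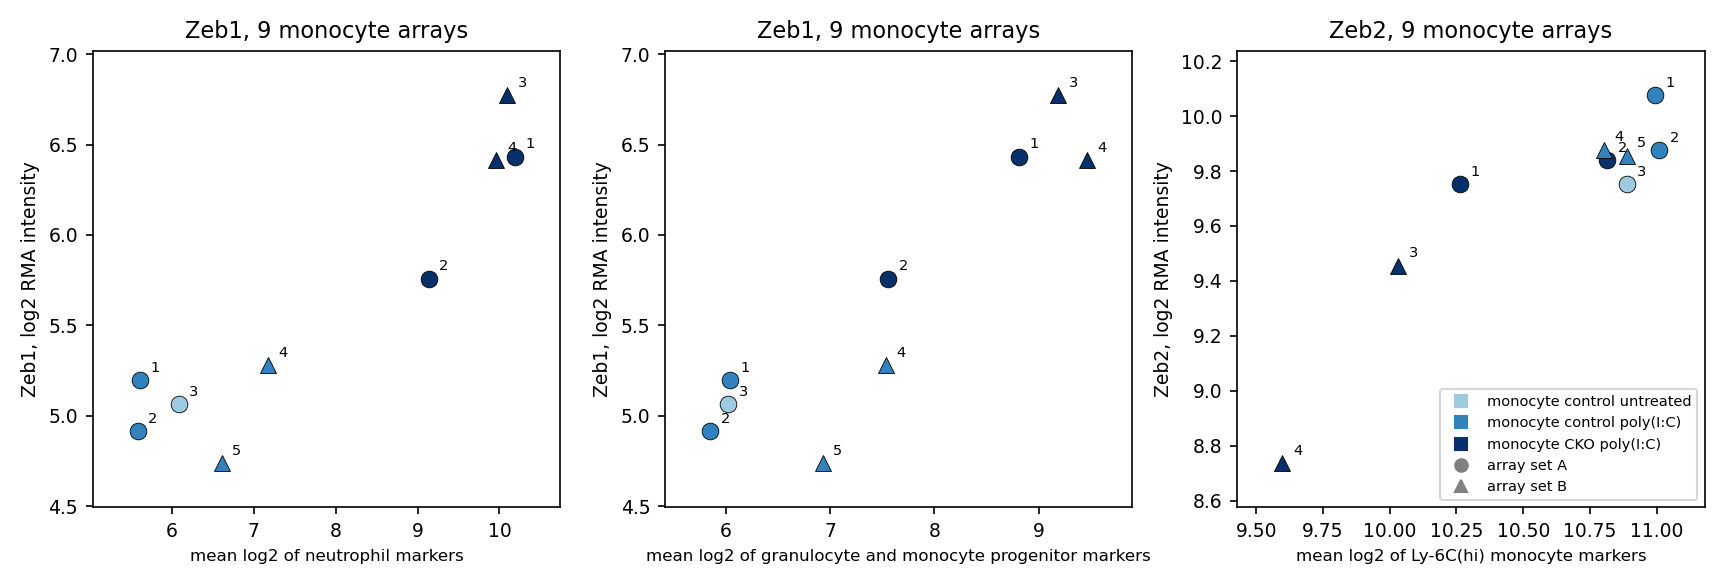
Zeb1 against the mean log2 value of neutrophil markers (left) and of progenitor markers (middle), and Zeb2 against the mean of Ly-6C(hi) monocyte markers (right), for the 9 monocyte arrays; numbers are title numbers, colours groups and shapes array sets. The 4 labelled-deficient arrays have more neutrophil signal (9.14 to 10.2), more progenitor signal and more Zeb1 than all 5 controls, while within the groups the orders differ, and array 4 of the labelled-deficient monocytes had the lowest Zeb2 (8.74) and the fewest monocyte transcripts (9.60).

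In neutrophils 0 of the 7 tested progenitor markers were called by limma, and 0 at an unadjusted p under 0.05, while all 7 differences were above 0 (median 0.34). Labelled-deficient neutrophil array 4 had the highest Zeb2, 8.25, and the highest progenitor mean, 6.20, against 5.14 to 5.55 on the other three. The part of that signal in the neutrophil Zeb2 difference was not tested either.

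Zeb2os, a transcript antisense to Zeb2 (probe set 10471945) that is no member, gave differences in the same directions as Zeb2. Control monocytes read 8.92, 8.82, 8.54 and 8.71, and labelled-deficient monocytes 8.49, 8.54, 8.22 and 7.71. The latter were all lower, array 4 most, and the difference of -0.51 ± 0.17 (SE) did not pass (limma adjusted p = 0.0816). Blocking on array set brought it past the test, overall (adjusted p = 0.0422) or within cell type (0.0250). Control neutrophils read 4.76, 4.62, 4.47 and 5.03, and labelled-deficient neutrophils 5.05, 5.40, 5.04 and 5.28. Those groups did not overlap, as for 3.43% of genes, and the difference of 0.48 ± 0.17 (SE) did not pass (limma adjusted p = 0.806).

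The change in Zeb2os differed between the cell types by -0.98 ± 0.24 (SE, limma adjusted p = 0.0333). Its neutrophil values, 4.47 to 5.40, lay near the 40th percentile of 4.40 to 4.50, so the neutrophil part rests on low signal. Over the 9 arrays of a cell type its r with Zeb2 was 0.94 in monocytes and 0.33 in neutrophils. In controls Zeb2os was 16.3-fold higher in monocytes (4.03 ± 0.17 SE, limma adjusted p = 1.71e-12). The difference in its change did not pass within set A (adjusted p = 0.193) or set B (0.0761). Whether the labelling kept the strand is not given in the sources used here, so signal from Zeb2 and Zeb2os may not be fully separate.

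None of the genes next to Zeb1 or Zeb2 on their chromosomes was called for genotype in either cell type by limma. Of 11 tested, 2 had an unadjusted p under 0.05 in monocytes (Arhgap15 and Zeb2os) and 2 in neutrophils (Gm10125 and Zeb2os). Of all genes tested, 21.3% had an unadjusted limma p below 0.0580 in monocytes, and 5.38% had one below 0.0524 in neutrophils. Next to Zeb1, the monocyte differences were -0.32 for Svil, -0.03 for Gm10125, -0.29 for Arhgap12, 0.06 for Kif5b and -0.13 for Epc1, while Zfp438 was below the filter. Next to Zeb2 they were 0.47 for Kynu, -0.40 for Arhgap15, -0.16 for Gtdc1, -0.19 for Acvr2a and -0.12 for Orc4.

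**Figure D4:**
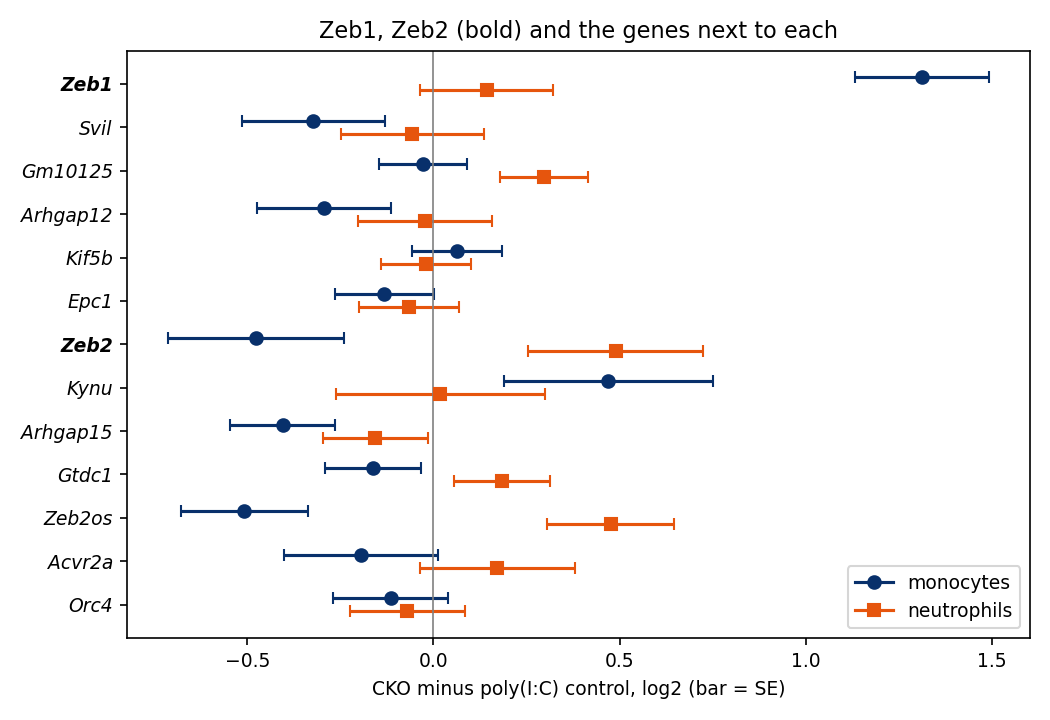
Labelled-deficient minus poly(I:C) control, as log2 difference with its SE, for Zeb1, Zeb2 and the nearest measured genes on each side, in monocytes (circles) and neutrophils (squares). Zeb1 in monocytes, at 1.31, is the highest point, and Zeb2 and Zeb2os lie below 0 in monocytes and above 0 in neutrophils.

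Genes whose pattern came closest to Zeb1 over all 18 arrays, by Pearson r, were Rflnb (r = 0.986), the actin cross-linker gene Actn1 (0.986), Susd1 (0.985), Syne1 (0.983), which encodes a nuclear envelope protein, and the protease gene Asprv1 (0.983). Like Zeb1, all were higher in control neutrophils than in control monocytes, by 1.28 to 5.80 on the log2 scale. A choice by r over both cell types largely fixes that direction. Over the 9 monocyte arrays the closest were Fndc9 (0.992), Pdzd8 (0.990), Cemip2 (0.985), the DNA repair gene Brca1 (0.984) and Hmgn2 (0.982), which encodes a nucleosome-binding protein. These points share genotype, array set and cell type, so r is a description over samples that fall into clusters.

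For Zeb2 the closest over 18 arrays were the nucleotide receptor gene P2ry6 (r = 0.990), Cd180 (0.980), Irf5 (0.979), Mpeg1 (0.979) and Pid1 (0.978). All were higher in control monocytes than in control neutrophils, by 1.53 to 5.21, a direction again largely fixed by the choice. Over the 9 monocyte arrays they were Lilrb4a (0.990), Kdm7a (0.990), Cd180 (0.989), Ogt (0.988), which encodes the enzyme that attaches O-linked GlcNAc to proteins, and Vps13c (0.983). Between Zeb1 and Zeb2 themselves r was -0.86 over all 18 arrays and -0.63 over the 9 monocyte arrays. Their lists had no gene in common, which these values largely fixed. Cd180 alone appeared in both lists of Zeb2.

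The partners of ZEB proteins were followed with lists of cofactors, upstream signals, antagonists and targets. Among 22 cofactors, components of co-repressor complexes, 1 rose and 1 fell in labelled-deficient monocytes, beside 5.11% of all genes tested called higher and 2.44% lower. The list median was 0.08, against -0.03 over all genes tested. The corepressor gene Rcor1, a scaffold of the complex that holds the demethylase KDM1A, rose by 0.55 ± 0.14 (SE, limma adjusted p = 0.0190). Its control arrays read 6.69, 6.93, 6.77 and 6.67 and its labelled-deficient arrays 7.47, 7.20, 7.24 and 7.34. The 2 groups did not overlap, as for 10% of genes. The CtBP corepressors, direct partners of ZEB proteins, gave 0.02 for Ctbp1 and -0.04 for Ctbp2, neither past the test.

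Mta3, a subunit of the NuRD deacetylase complex, behaved differently in the 2 cell types. In monocytes it read 7.87, 7.90, 7.94 and 7.73 in controls and 7.22, 7.62, 7.14 and 7.09 in labelled-deficient arrays, and fell by 0.59 ± 0.12 (SE, limma adjusted p = 0.00494). In neutrophils it read 6.62, 6.40, 6.56 and 6.63 in controls and 7.19, 7.31, 7.01 and 7.21 in labelled-deficient arrays. These did not overlap, as for 3.43% of genes, and the difference of 0.63 ± 0.12 (SE) did not pass (limma adjusted p = 0.0555). It passed with quantile normalization (0.61, adjusted p = 0.0376), with the array set as a block (0.0235) and with the set within cell type as a block (0.0186), and over all alternatives tried the adjusted p ran from 0.0186 to 0.364. The difference between the cell types was -1.22 ± 0.17 (SE, limma adjusted p = 7.60e-04). In neutrophils 0 of the 22 cofactors were called, or 1, Mta3, under those 3 alternatives, and 2 had an unadjusted p under 0.05, Mta3 and Rbbp7, the latter at 0.47 (limma adjusted p = 0.850).

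Of 20 tested genes of TGF-beta and BMP signalling, the pathways whose Smads ZEB proteins bind, 1 was called higher and 2 fell in labelled-deficient monocytes (median -0.21), against 5.11% and 2.44% of all genes tested. With the array set as a block, alone or within cell type, and within set B, 4 fell, against 1 with quantile normalization and 0 within set A. Of all 13387 genes tested, 596, 733, 714, 329 and 23 were called lower under these settings, in that order. The receptor genes Acvr1 and Tgfbr2 fell by 0.59 ± 0.17 (SE, limma adjusted p = 0.0382) and 0.52 ± 0.12 (SE, limma adjusted p = 0.0122). With the title number as a replicate block 1 gene of the list fell, since Acvr1 no longer passed (adjusted p = 0.102). The gene called higher, the BMP receptor gene Bmpr1a, lay under the array's 40th percentile on all 9 monocyte arrays, at 2.42 to 3.18 in poly(I:C) controls and 3.34 to 4.37 in labelled-deficient arrays. It entered the test through neutrophils, and its monocyte signal is close to background, so no change is read from that call. In neutrophils 0 of 20 were called, and 1 at an unadjusted p under 0.05, with Bmpr1a (0.54) and Ski (0.23) the smallest p-values (limma adjusted p = 0.735 and 0.989).

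Of 14 listed antagonists of Zeb, which are miR-200 genes and the epithelial factors of the Grhl, Ovol and Elf families, 12 were measured and 5 passed the filter. In monocytes 0 of 5 were called by limma (median -0.09), and 0 at an unadjusted p under 0.05, with Ovol2 at -0.09 and Mir200c at -0.11 giving the smallest p-values (limma adjusted p = 0.679 and 0.687). Mir200a differed by 0.01. In neutrophils 0 of 5 were called as well, and 0 at an unadjusted p under 0.05, with Grhl3 at -0.13 and Mir200a at -0.08 (limma adjusted p = 0.999 for both). Means of the 5 were 4.40 to 4.84 in poly(I:C)-treated monocytes, close to the 40th percentile, so a fall in these genes was hardly detectable.

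Of 9 tested factors that bind E-boxes or block such factors, 1 rose and 1 fell in labelled-deficient monocytes (median 0.08), against 5.11% and 2.44% of all genes tested, and 0 in neutrophils, or 1 at an unadjusted p under 0.05, where Tcf12 (0.41) and Id1 (-0.33) had the smallest p-values (limma adjusted p = 0.971 and 0.976). Tcf4, which encodes the E protein E2-2, read 6.77, 7.19, 7.06 and 7.09 in control and 5.88, 6.53, 5.91 and 6.30 in labelled-deficient monocytes. It fell by 0.87 ± 0.17 (SE, limma adjusted p = 0.00252), and the difference between its 2 changes, monocyte minus neutrophil, was -0.95 ± 0.23 (SE, limma adjusted p = 0.0354), which did not pass within set A (0.428) or set B (0.122). Id2, an inhibitor of E proteins, read 8.19, 8.38, 8.51 and 8.19 in control and 9.61, 8.67, 9.17 and 9.33 in labelled-deficient monocytes. It rose by 0.88 ± 0.18 (SE, limma adjusted p = 0.00395). Neither pair of groups overlapped, as for 10% of genes in this comparison.

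Both genes also belong to a list of 13 transcription factors studied beside Zeb2 in dendritic and lymphoid cells, of which 10 were tested. In monocytes 1 of them rose and 2 were called lower (median -0.24), against 5.11% and 2.44% of all genes tested. Irf4, a factor of dendritic and B lineage cells, fell by 1.35 ± 0.30 (SE, limma adjusted p = 0.00883), from 5.69 to 6.35 in controls to 4.08 to 6.05. Its labelled-deficient array 2 lay within the control range. Among neutrophils 0 of 10 were called, and 0 at an unadjusted p under 0.05, with Id2 at 0.29 and Zbtb16 at 0.17 (limma adjusted p = 0.999 for both).

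Of the epithelial genes known as ZEB targets, 33 were measured and 21 tested. In labelled-deficient monocytes 5 of the 21 were called higher and 0 lower (median 0.09), against 5.11% and 2.44% of all genes tested. Of the 5, Krt18 and Marveld2 entered the test through labelled-deficient arrays, as given below. The count of higher calls was 4 with the replicate block, 2 within set A and 6 within set B. Higher calls over all 13387 genes tested were 614, 192 and 1010 there. Cldn1, a tight junction protein gene, rose by 3.98 ± 0.26 (SE, limma adjusted p = 5.00e-08), from 4.07, 4.24, 4.61 and 4.09 in controls to 8.79, 7.63, 8.27 and 8.22. The control level is near the 40th percentile of the arrays, and control neutrophils already stood at 7.81. Cd24a, a surface protein also abundant on granulocytes, rose by 1.99 ± 0.15 (SE, limma adjusted p = 1.86e-07), from 9.31, 8.97, 9.61 and 9.36 to 11.45, 10.76, 11.45 and 11.55. Neutrophil controls averaged 11.9 for Cd24a. For Cldn1 and Cd24a the groups lay far apart, and the labelled-deficient array 2 was the lowest for each, as it was for Zeb1.

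The desmosome gene Dsp rose by 1.30 (limma adjusted p = 0.00118). The keratin gene Krt18 was called higher by 1.02 (limma adjusted p = 0.0420) and the junction gene Marveld2 by 0.94 (0.00225). Control means of Dsp, Krt18 and Marveld2 were 4.51, 4.23 and 3.73, near or under the 40th percentile. Krt18 and Marveld2 each exceeded that percentile on 3 of 9 monocyte arrays, all labelled-deficient. They entered the test through labelled-deficient arrays, so a fall could hardly be called, and no rise is read from their calls. Krt18 overlapped with its controls through array 2, and its difference was 0.28 within set A, not called, and 1.77 within set B. With the replicate block Krt18 did not pass (adjusted p = 0.0666). E-cadherin, encoded by Cdh1 and the best known ZEB target, differed by -0.05 ± 0.12 (SE, limma adjusted p = 0.891) at a control level of 4.19, near background.

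None of the 21 was called by limma in neutrophils, and 2 had an unadjusted p under 0.05, Marveld2 at 0.43 (limma adjusted p = 0.891) and Dsp at 0.53 (0.909). The changes of Cldn1 and Cd24a differed between the cell types, by 3.72 ± 0.37 (SE, limma adjusted p = 2.44e-05) and 2.02 ± 0.21 (SE, limma adjusted p = 3.33e-05). Among 13 tested mesenchymal genes, which rise with ZEB proteins in other settings, 1 fell in monocytes (median -0.14), the integrin gene Itgav, by 0.55 ± 0.14 (SE, limma adjusted p = 0.0236). Of all genes tested 2.44% were called lower. Itgav did not pass with the replicate block (adjusted p = 0.0545) and 0 of the 13 fell there or within set A. With the array set as a block, alone or within cell type, 2 fell. Of all 13387 genes tested, 265, 23, 596 and 733 were called lower under these settings, in that order. Among neutrophils 0 of the 13 were called, and 1 at an unadjusted p under 0.05, with Itga5 (0.34) and Tagln (0.29) first (limma adjusted p = 0.955 and 0.976).

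Within array set A alone, where 215 genes were called in monocytes, the members called among the 7 lists of Zeb partners and targets were 2 epithelial genes, Cldn1 and Cd24a. All 8 neutrophil markers and all 7 tested progenitor markers were called there as well. Over both sets, 9 of 20 TGF-beta and BMP genes had an unadjusted limma p under 0.05 in monocytes. So did 6 of 10 dendritic and lymphoid partners, 6 of 21 epithelial genes and 3 of 22 cofactors. For E-box factors it was 2 of 9 and for mesenchymal genes 2 of 13. Of all genes tested, 21.3% had an unadjusted p below that of Zeb2, 0.0580. In neutrophils 5.38% had an unadjusted limma p below that of Zeb2 there, 0.0524. The neutrophil and progenitor markers described above rose on the same labelled-deficient arrays, and the part of that signal in the list differences was not tested.

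**Figure D5:**
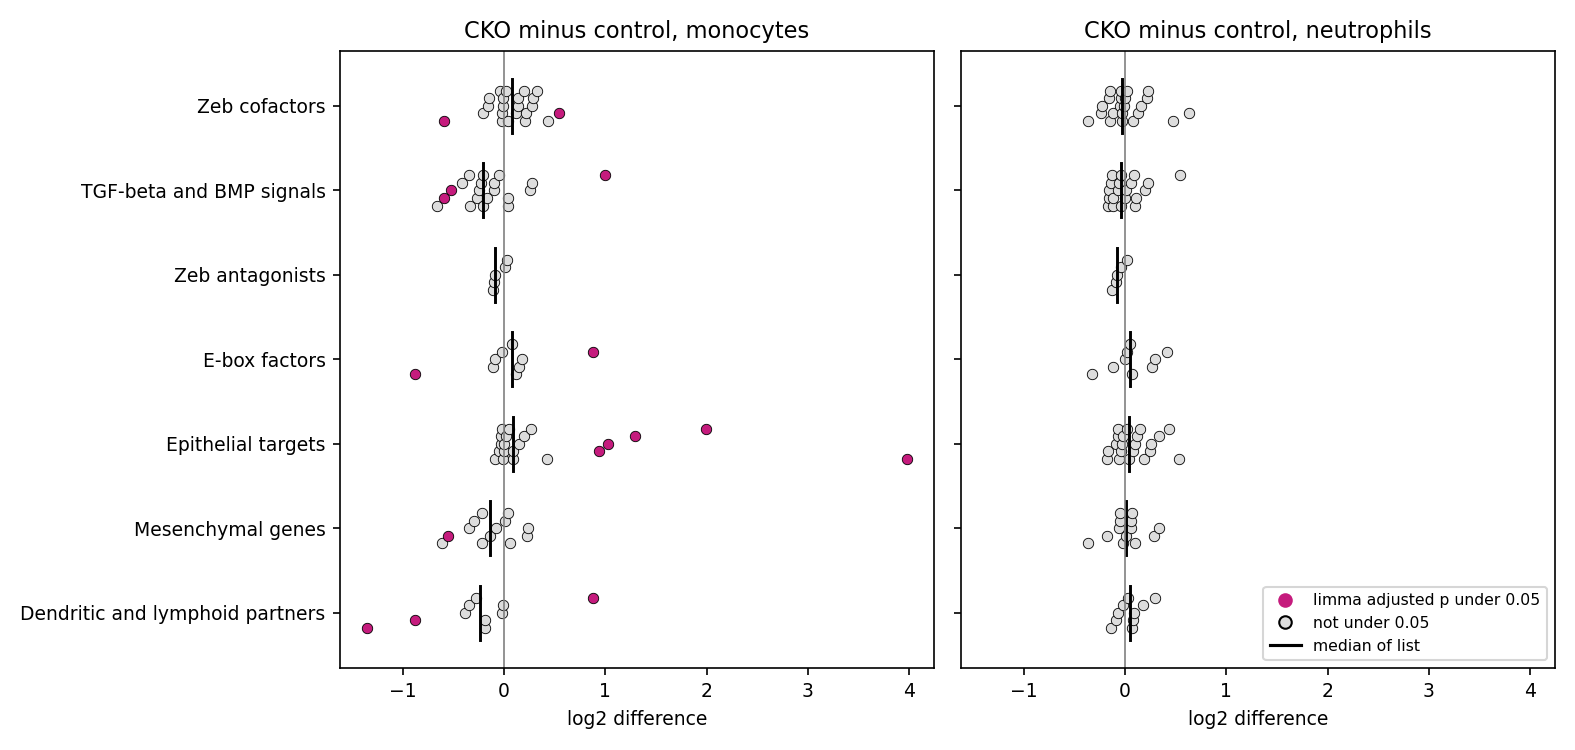
Labelled-deficient minus poly(I:C) control, as log2 difference, for the tested members of 7 lists in monocytes (left) and neutrophils (right); coloured points passed limma at an adjusted p under 0.05, grey points did not, and vertical bars are list medians. Cldn1 at 3.98 and Cd24a at 1.99 stand apart in monocytes, list medians lie between -0.24 and 0.09 there, and no point passed in neutrophils.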

How the data were processed

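Expression was measured on 18 Affymetrix Mouse Gene 1.0 ST arrays, and the authors deposited log2 intensities made with RMA, per the submitters' processing notes, with software and version not given in the sources used here. Members and gene lists were chosen with earlier results of these data known. Of 21789 probe sets with 1 symbol, the one with the highest mean was kept for each of 19938 genes, and genes above an array's 40th percentile in at least 4 arrays were tested, which left 13387. A group-means model with a variance trend was fitted to all 18 arrays with limma 3.58.1 in R 4.3.3 (12 residual degrees of freedom), with Benjamini-Hochberg adjustment, and was tested on simulated data. Single-gene exact permutation tests used 70 splits of the arrays.

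Named are Zeb1, Zeb2, the 5 genes closest to each in pattern, their 3 measured neighbours on each side, up to 4 called members of a list or the 2 with the smallest p-value, and further members (Ctbp1, Ctbp2, Mir200a and Cdh1) chosen after their values were seen. Zeb2os is one of the neighbours. Gene identifiers of 99.59% of genes matched RefSeq, and promoter and microRNA sequences are from RefSeq (GRCm38.p6). Array sets A and B follow the samples' order in the record, with a different division of title numbers in each genotype, and are not stated by the labels. Control and labelled-deficient arrays of the same title number deviated together in 6 of 6 pairs (r = 0.183 to 0.428). Pairs with different numbers of the same set did so too, in 10 of 10 (0.127 to 0.348). Pairs from different sets did not (-0.344 to -0.085). Pairing by title number therefore cannot be told apart from array set. Alternatives changed the normalization, filter, probe sets, variance model, array weights, blocks, sets, controls and replicates.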

Additional observations from a re-analysis of the deposited data

Results flagged for a closer look

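In 28 checks of groups of 4 arrays for a single array far from the others, 1 stood out. Chance gives about 1 in 20. The checks read several quantities, among them Zeb1 minus Zeb2, in the same groups of arrays, so they are not independent. Zeb2 on control monocyte array 1 (10.08) was separated from the other three (9.86 to 9.88) by 0.90 of the group's range, above the critical value of 0.829.

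The other results listed here are genes whose change differed between monocytes and neutrophils in limma's test of that difference. It was 1.17 for Zeb1 (adjusted p = 0.0152), -0.98 for Zeb2os (0.0333) and -1.22 for Mta3 (7.60e-04), the last with opposite signs in the cell types, a fall of 0.59 in monocytes that passed and 0.63 in neutrophils that did not (adjusted p = 0.0555), but did with quantile normalization (0.0376) and with the array set as a block, alone (0.0235) or within cell type (0.0186). Tcf4 gave -0.95 (0.0354), Cldn1 3.72 (2.44e-05) and Cd24a 2.02 (3.33e-05), and the neutrophil changes of these were 0.07, 0.26 and -0.03. Within array sets A and B the difference passed in both for Cldn1 (adjusted p = 0.00208 and 2.87e-05) and Cd24a (0.00657 and 2.60e-05), in set B alone for Zeb1 (0.544 and 0.0112) and Mta3 (0.0653 and 0.00598), and in neither for Tcf4 (0.428 and 0.122) and Zeb2os (0.193 and 0.0761).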

How the results depend on the processing

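Under 14 alternatives to each limma result no difference of Zeb1 or Zeb2 changed sign. The Zeb1 rise in monocytes passed under all 14 (1.04 to 1.58), and the differences between cell types among controls and among labelled-deficient arrays also passed under all. The calls that moved were these. The difference between cell types in the change of Zeb1 no longer passed within array set A (0.76, adjusted p = 0.544). The Zeb2 difference in monocytes passed within array set B (-0.77, adjusted p = 0.0350). Its exact permutation p (-0.48, p = 0.0286) is a single-gene value without adjustment, and limma's unadjusted p was 0.0580. The difference between cell types in the change of Zeb2 passed within array set B (-1.36, adjusted p = 0.0226) and with the array set within each cell type as a block (-0.97, adjusted p = 0.0232), an alternative chosen after seeing the data. The cause was not tested. The replicate block changed no call of Zeb1 or Zeb2 (Zeb1 in monocytes 1.21, adjusted p = 6.25e-04; Zeb2 in monocytes -0.48, adjusted p = 0.351). With single arrays left out, Zeb1 in monocytes ran from 1.17 to 1.51 and its difference between cell types from 1.03 to 1.36, all past the threshold. Zeb2 ran from -0.61 to -0.24 in monocytes and from 0.32 to 0.70 in neutrophils with no call, and its difference between cell types from -1.18 to -0.73, called only without labelled-deficient neutrophil array 2 (-1.18, adjusted p = 0.0446). Zeb1 in neutrophils ran from 0.079 to 0.22. The monocyte change of Zeb1 minus Zeb2 ran from 1.53 to 2.12, and without any 1 control array the exact permutation test of 4 against 3 gave p = 0.0571, while in neutrophils it ran from -0.54 to -0.20. Control differences ran from -2.36 to -2.18 for Zeb1 and 2.55 to 2.78 for Zeb2, and labelled-deficient ones from -1.25 to -0.91 and 1.5 to 1.95. Of 168 counts of list members recomputed after seeing the data, 146 stayed within 1.5 times. No list member was called in neutrophils as reported, and counts that stayed at none are among the 146. The figure is therefore a weak measure of stability. Genes called in monocytes numbered 1010 as reported, 500 with only the arrays compared, 1613 with array weights, 1516 with the array set as a block, 1749 with it within cell type, 215 within set A and 1724 within set B. For neutrophils they were 16, 9, 22, 22, 27, 3 and 14, and for the difference between cell types 359, 358, 650, 567, 727, 72 and 731. With single arrays left out, monocyte calls ran from 620 to 2001, with 620, 621 and 2001 without labelled-deficient arrays 4, 3 and 2, the last with 951 genes lower against 326. Neutrophil calls ran from 8 to 17, with 8 without labelled-deficient array 1 and 9 without control array 4, and those for the difference between cell types from 245 to 904, the latter without labelled-deficient monocyte array 2. Signal close to background limits what can be seen for genes near the 40th percentile of the arrays, among them Bmpr1a, Krt18 and the miR-200 genes. Quantile normalization moved the split of control calls from 3998 higher in monocytes and 3848 lower to 3488 and 4444.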
